A study of Homo sapiens with 20 samples.

Results

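Contacts of poised enhancers in H9 human primed pluripotent stem cells were set beside those of HNES1 cells on day 14 of the naive-to-primed transition. The contacts described are pairs of DNA fragments on the same chromosome that reached an interaction score of 5 or more in either cell state: 42500 of the 182303 listed pairs within chromosomes, and of the 766138 pairs listed in all. A pair is listed where it reached 5 in at least 1 of the study's 10 conditions. H9 contributed 23764 called contacts and day 14 contributed 20498. Poised Enhancer Capture Hi-C (PECHi-C) joins DNA that lies close together in fixed nuclei, then enriches ligation products that carry a captured fragment, the bait, with RNA probes designed for poised enhancers. The partner of a bait is called the other end and had a median length of 5264 bp, against 617 bp for baits.

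H9 is a human embryonic stem cell line, here grown without feeder cells in mTeSR-E8 medium on Geltrex. HNES1 is a human naive embryonic stem cell line. For the transition it was taken from naive medium on mouse feeder cells to feeder-free plates and kept in N2B27 with 2 µM XAV939, a tankyrase inhibitor, until harvest on day 14, when the labels call it primed. Both states were fixed with 2% formaldehyde. Each was made into 2 libraries, but the deposited matrix gives a single pooled score per state. The spread between libraries is therefore unknown, and H9 and day 14 could not be compared by a test. Cell line, medium and route to the primed state differ together between the groups and cannot be told apart. The other 8 conditions of the study were the naive state, 5 further days of the transition, definitive endoderm and neuroectoderm, all from HNES1. The assay measures no RNA or protein, so the primed label could not be checked against marker genes.

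Poised enhancers are regulatory elements that hold both active and Polycomb-deposited repressive chromatin marks in pluripotent cells, usually close to genes that act later in development. Polycomb complexes draw such elements and the promoters of HOX and other homeobox genes together in the nucleus, so that pluripotent cells show contacts between silent developmental loci. HOX genes lie in 4 clusters and specify position along the body axis, with genes at one end of a cluster used toward the head and those at the other end used toward the tail.

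Among the genes whose transcript start lay at a contacted fragment or within 1 kb of it, PAX2, MEIS2 and HAND2 had more calls in H9. NKX2-1 and MEIS1 had fewer. Their promoters (250 bases before the transcript start and 50 after it, RefSeq, GRCh38.p14) are shown with each CG dinucleotide in capitals, because CpG-rich sequence is where Polycomb complexes are known to settle. The PAX2 window is chr10:100735146-100735445 on the plus strand, with 14 CG. The MEIS2 window is chr15:37099057-37099356 on the minus strand, with 35 CG. The HAND2 window is chr4:173530180-173530479 on the minus strand, with 15 CG. The NKX2-1 window is chr14:36520183-36520482 on the minus strand, with 21 CG, and the boundary between its 2 contacted fragments falls inside it. The MEIS1 window is chr2:66434875-66435174 on the plus strand, with 18 CG. All promoters of this length in the RefSeq table had a median of 14 CG, and those of linked genes a median of 23, which of the 5 windows shown only that of MEIS2 exceeds.
PAX2: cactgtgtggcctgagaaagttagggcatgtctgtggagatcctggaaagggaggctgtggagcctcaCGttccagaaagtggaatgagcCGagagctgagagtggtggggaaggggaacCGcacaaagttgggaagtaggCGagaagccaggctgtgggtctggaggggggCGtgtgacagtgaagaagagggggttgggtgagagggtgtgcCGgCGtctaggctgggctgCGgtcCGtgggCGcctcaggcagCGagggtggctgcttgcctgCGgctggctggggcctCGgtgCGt
MEIS2: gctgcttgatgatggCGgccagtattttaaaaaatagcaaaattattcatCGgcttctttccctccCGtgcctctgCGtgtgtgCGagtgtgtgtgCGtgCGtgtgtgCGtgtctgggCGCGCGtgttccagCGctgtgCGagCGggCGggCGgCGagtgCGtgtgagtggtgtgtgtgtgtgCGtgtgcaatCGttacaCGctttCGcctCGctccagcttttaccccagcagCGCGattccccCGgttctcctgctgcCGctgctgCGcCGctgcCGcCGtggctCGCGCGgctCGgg
HAND2: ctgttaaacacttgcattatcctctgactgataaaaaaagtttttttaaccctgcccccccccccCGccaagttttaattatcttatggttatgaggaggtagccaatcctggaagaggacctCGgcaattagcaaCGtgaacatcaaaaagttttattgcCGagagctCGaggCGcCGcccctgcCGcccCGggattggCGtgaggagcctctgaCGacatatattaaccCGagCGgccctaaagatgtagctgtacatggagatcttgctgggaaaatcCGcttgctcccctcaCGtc
NKX2-1: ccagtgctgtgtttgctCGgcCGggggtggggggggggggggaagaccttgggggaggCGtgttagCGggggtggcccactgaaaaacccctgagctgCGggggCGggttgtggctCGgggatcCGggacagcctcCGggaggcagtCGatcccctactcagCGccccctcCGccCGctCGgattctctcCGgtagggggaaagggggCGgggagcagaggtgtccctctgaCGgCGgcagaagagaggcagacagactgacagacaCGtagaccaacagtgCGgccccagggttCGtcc
MEIS1: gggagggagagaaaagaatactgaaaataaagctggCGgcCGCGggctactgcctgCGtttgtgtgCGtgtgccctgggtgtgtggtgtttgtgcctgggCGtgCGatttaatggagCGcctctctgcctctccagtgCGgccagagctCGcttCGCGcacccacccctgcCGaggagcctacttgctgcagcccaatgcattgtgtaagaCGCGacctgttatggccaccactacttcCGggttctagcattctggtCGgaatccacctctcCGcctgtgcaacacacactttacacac

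Most called contacts were called in one state and not in the other. Of the 182303 listed pairs, 22002 (12.1%) were called in H9 and not at day 14, 18736 (10.3%) at day 14 and not in H9, and 1762 (0.967%) in both. The shared contacts made up 7.41% of H9 calls (Wilson 95% interval 7.09 to 7.75%) and 8.60% of day 14 calls (8.22 to 8.99%). These intervals cover counting error only. Where an equal number of top-scoring pairs was taken in each state (20498, which set the lowest H9 score at 5.16), 1641 were shared, or 8.01%. Day 14 shared 6.06% of its calls with the naive state, 7.27% with day 10 and 11.2% with neuroectoderm. With 18272 top-scoring pairs in each condition, day 14 shared 8.03% with H9, 7.55% with day 10 and 8.82% with neuroectoderm. A low overlap was therefore not particular to H9 and day 14.

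Many calls stood near the threshold. The median called score was 5.79 in H9 and 5.71 at day 14, and 57.9% of H9 calls and 60.6% of day 14 calls lay between 5 and 6. On either side of the threshold the lowest called score was 5.0001 in both states and the highest not called was 4.99996 in H9 and 4.99997 at day 14, while 6126 pairs in H9 and 5741 at day 14 scored between 4 and 5. Of the contacts called in H9 and not at day 14, 38.9% were at a score of 0 at day 14, 11.8% were above 0 and under 1, 35.5% were between 1 and 3, and 13.7% between 3 and 5. Of the contacts called at day 14 and not in H9, 33.9% were at 0 in H9 and 15.1% were between 3 and 5.

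The share held in common was greater among strong contacts. Of H9 calls scoring 5 to 6, 4.76% were also called at day 14, against 29.6% of those scoring 10 to 15 and 77.1% of the 70 scoring 15 or more (interval 66.0 to 85.4%). Of day 14 calls scoring 5 to 6, 5.43% were also called in H9, against 39.5% of those scoring 10 to 15 and 73.3% of the 45 scoring 15 or more. The classes at 15 or more include very distant pairs across the chromosome 16 centromere, and sharing was not computed without them. A looser match raised the overlap: 15.0% of H9 calls had a day 14 call of the same bait within 10 kb and 33.2% within 50 kb, and 16.9% and 36.2% of day 14 calls had such an H9 call.

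A bait can score 0 in every pair listed for it in 1 state. This was so for 5520 of 28903 baits in H9 (19.1%) and 6733 at day 14 (23.3%). Baits at 0 throughout day 14 carried 889 of the 22002 contacts called in H9 and not at day 14 (4.04%), and baits at 0 throughout H9 carried 275 of the 18736 called at day 14 and not in H9 (1.47%).

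Called contacts spanned slightly longer distances in H9, with a median of 221 kb, than at day 14, with 208 kb. At 50 to 100 kb the states were close, with 2631 calls in H9 and 2564 at day 14, a ratio of 1.03. At 500 to 1000 kb H9 had 2099 and day 14 had 1450, a ratio of 1.45, and at 1 to 5 Mb 68 and 25, a ratio of 2.72. Up to 1 Mb the shared part was smaller at longer distances, being 13.9% of H9 calls and 18.2% of day 14 calls within 20 kb, and 2.67% and 3.86% at 500 to 1000 kb. Beyond 5 Mb the counts were 45 and 46, with 26 in common. With equal numbers of pairs the medians were 220 and 208 kb. H9 then had fewer contacts at 50 to 100 kb, 2270 and 2564, a ratio of 0.885. The ratio was 1.19 at 500 to 1000 kb and 2.32 at 1 to 5 Mb. Contacts between 2 baits numbered 434 in H9 and 324 at day 14, with 25 in common, and 374 and 324 with equal numbers.

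**Figure D1:**
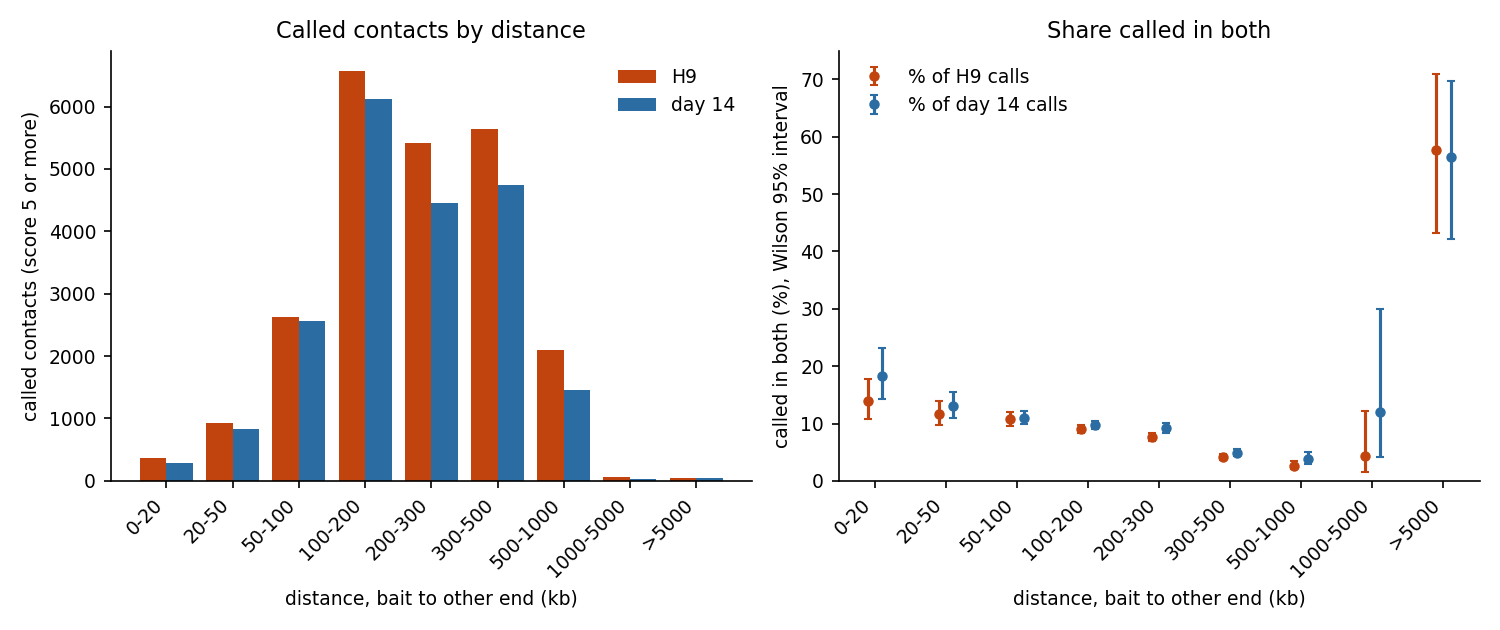
Left, number of called contacts within chromosomes by distance between bait and other end (kb), in H9 (orange) and at day 14 (blue). Right, percent of each state's calls that were called in both, with Wilson 95% intervals; the share is 13.9% of H9 calls within 20 kb and 2.67% at 500 to 1000 kb, and the class beyond 5000 kb holds 45 H9 and 46 day 14 calls.

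HOX genes gathered more contacts in H9 than at day 14. A gene was linked where an annotated end lay within 1 kb of the other end, which linked 9441 protein-coding genes and 37 of 39 HOX genes (HOXD3 and HOXD4 were not linked). The linked HOX genes had 254 calls in H9 and 156 at day 14, a ratio of 1.63 against 1.16 over all linked genes. Their mean was 6.86 calls per gene in H9 and 4.22 at day 14, and 6.51 and 4.22 with equal numbers of pairs. More calls in H9 were found for 27 HOX genes and fewer for 6, where 20.0% of all linked genes had more and 16.8% fewer. With equal numbers of pairs 25 HOX genes had more and 7 fewer, while over all linked genes 1626 had more and 1669 fewer. A difference of 3 or more was seen upward in 15 HOX genes and downward in 1, where 1.01% and 0.646% of all linked genes passed it. The median difference was 2 calls over HOX genes and 0 over all linked genes. HOX genes carried far more calls than the mean linked gene (0.401 in H9 and 0.346 at day 14), so a difference of 3 is easier to reach for them. At a score of 10 or more the mean difference was 0.135 calls per HOX gene, since few contacts reached it. Neighbouring HOX genes also share other ends, so the genes are not independent. Counted once each, contacts at HOX genes numbered 191 in H9 and 111 at day 14, with 28 in common.

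The HOXB cluster had the widest gap of the 4. Contacts at its genes numbered 75 in H9 and 32 at day 14, with 11 in common. HOXB9, a transcription factor gene of the trunk, had 24 calls from 19 baits in H9 and 7 calls from 7 baits at day 14, with 1 in common. In the other 8 conditions HOXB9 had between 0 and 7 calls. The H9 contacts were spread over 2 neighbouring fragments: the one at chr17:48620942-48625755, which covers most of the gene, had 12 in H9 and 5 at day 14, and the one at chr17:48627220-48632347, just outside it, had 11 and 2. A small fragment at the lower end of the gene, chr17:48620339-48620941, added 1 call in H9 and none at day 14. The strongest HOXB9 contact in H9 scored 9.91, against 0.741 at day 14, and came from a bait 125 kb away. The strongest at day 14 scored 9.27, against 4.69 in H9.

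HOXB13, the HOXB gene used nearest the tail, had 14 calls in H9 and 4 at day 14, with 2 in common. Its neighbours PRAC2 (14 and 4) and PRAC1 (14 and 5) were linked through the same fragment, so these counts repeat each other except for 1 day 14 call of PRAC1. HOXB2, a hindbrain gene, had 8 calls in H9 and 1 at day 14. HOXB3 (10 and 9) and HOXB5 (10 and 9) were nearly level.

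In the HOXC cluster, contacts at genes numbered 56 in H9 and 33 at day 14, with only 2 in common. HOXC10, a gene of the lower trunk and hindlimb level, had 18 calls in H9 and 6 at day 14, all at the fragment chr12:53986411-53991439, with 2 in common. In the other 8 conditions HOXC10 had 6 to 12 calls. The 22 HOXC10 contacts came from baits 6.39 to 261 kb away, and in H9 the strongest scored 11.5, against 2.78 at day 14. HOXC11 had 10 calls in H9 and 2 at day 14, none in common. HOXC4, at the head end of the cluster, had 14 and 5, and with its transcript start alone 4 and 1. In endoderm HOXC4 had 15 calls, so its H9 count was not the highest of the study.

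HOXC13 ran the other way, with 1 call in H9 and 12 at day 14. Of the 12, 10 lay on one fragment, chr12:53946250-53950569, which is listed in 29 pairs within the chromosome and stands at 0 in H9 in all of them. In the other 9 columns that fragment was above 0 in 21 to 26 of the 29 pairs. Of 631 fragments listed as other end in 10 or more pairs, 1 was at 0 throughout H9 and 1 at 0 throughout day 14. Without that fragment HOXC13 had 1 call in H9 and 2 at day 14. Why the fragment has no H9 score was not tested.

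In the HOXA cluster, contacts at genes numbered 48 in H9 and 37 at day 14, with 12 in common. Toward the head end, HOXA2 had 14 calls in H9 and 11 at day 14, HOXA3 had 19 and 12, and HOXA4 had 5 and 2. With its transcript start alone HOXA3 had 5 and 2. Its other calls, 14 and 10, lay on chr7:27101770-27106229, just outside the end of the gene away from its start. Further along the cluster HOXA7 had 5 and 2, and HOXA11 had 6 and 6. HOXA5 (6 and 7), HOXA6 (4 and 5), HOXA9 (4 and 5) and HOXA10 (9 and 11) had slightly fewer in H9. The HOXD cluster held few contacts at gene ends, 12 in H9 and 9 at day 14, and HOXD13 had 1 and 0. Contacts with both ends inside a cluster numbered 174 in H9 and 139 at day 14 over the 4 clusters, and 161 and 139 with equal numbers of pairs. Inside HOXD alone H9 had fewer, 18 and 21. Those from a bait outside a cluster to an other end in it numbered 176 and 111, and 171 and 111 with equal numbers. Those from a bait in a cluster to an other end outside it numbered 229 and 187, and 204 and 187 with equal numbers.

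**Figure D2:**
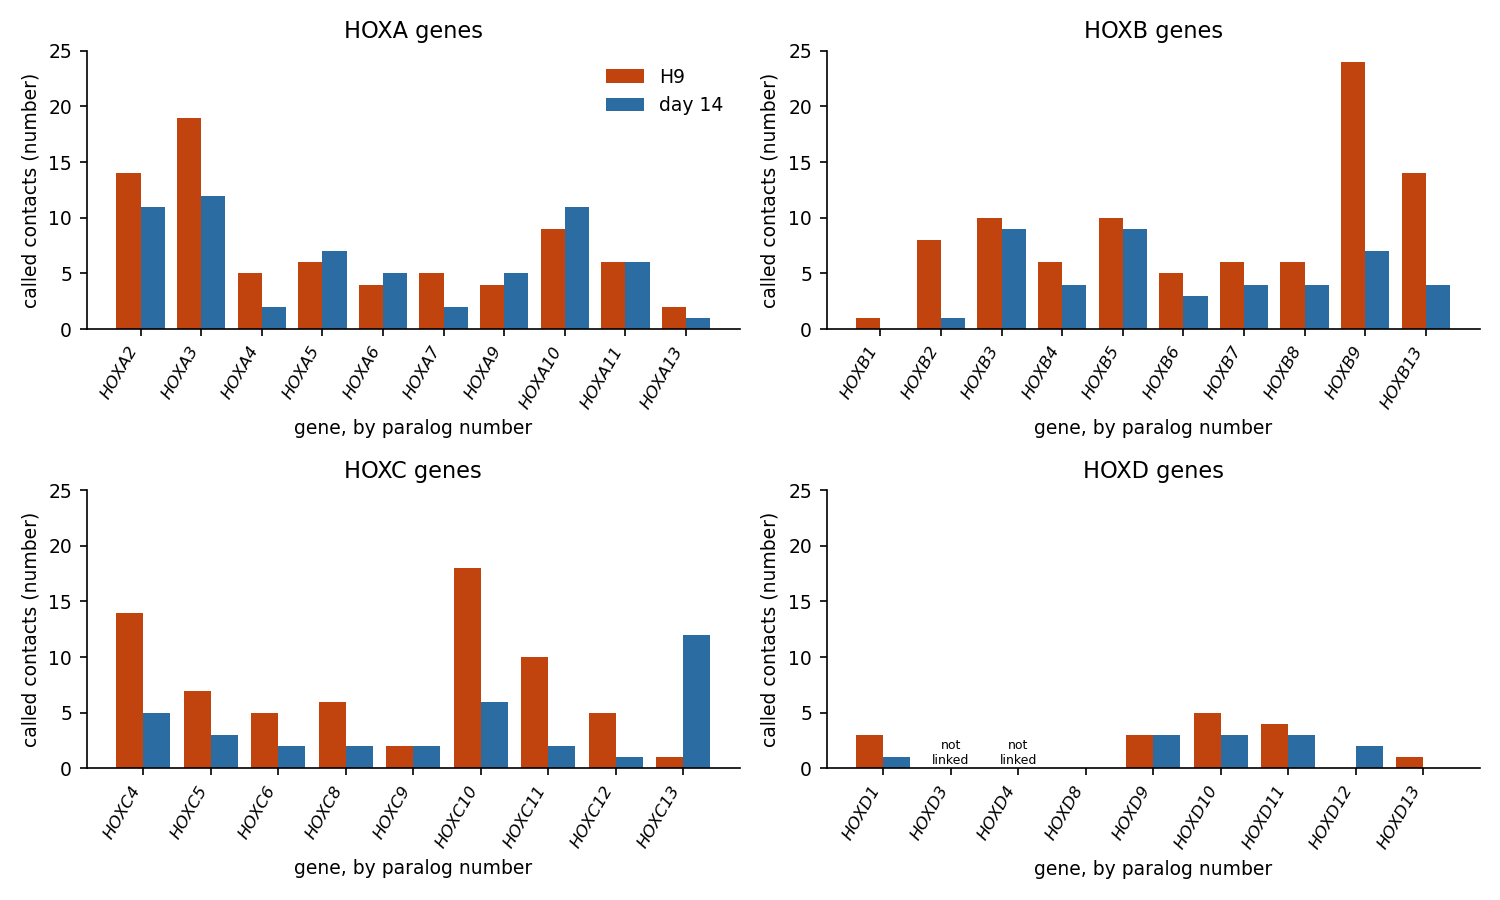
Called contacts at HOX genes as the other end, by cluster, in H9 (orange) and at day 14 (blue). HOXB9 stands at 24 and 7 and HOXC10 at 18 and 6, HOXC13 at 1 and 12, of which 10 day 14 calls lie on a fragment with no H9 score above 0.

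Outside the HOX clusters the gene with the largest gain was CNPY1, a regulator of fibroblast growth factor signalling at the midbrain-hindbrain boundary in zebrafish. CNPY1 had 11 calls in H9 and 0 at day 14, and 0 to 2 in the other 8 conditions. Of the 11, 9 lay on the fragment chr7:155496225-155501074, beside the end of the gene away from its start, and none lay at the transcript start given in the RefSeq promoter table. Of the other 2, 1 lay just inside that end and 1 at the annotated far end of the gene, chr7:155543434-155549177. The scores of those 9 contacts had a median of 7.09 in H9 and 2.68 at day 14, and the highest at day 14 was 4.86. The same 1 Mb held EN2, a homeobox gene of that boundary, with 5 calls in H9 and 0 at day 14, and SHH, which encodes the Sonic hedgehog morphogen, with 4 and 0. SHH had no call at its transcript start in either state. No listed pair linked to the transcript start of EN2, so no call there was possible. EN2 had 3 and 4 calls on days 3 and 5 of the transition, and SHH had 3 and 1.

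PAX2, a transcription factor gene of kidney, eye and midbrain, had 9 calls in H9 and 1 at day 14. At the fragment with its promoter, shown above, the counts were 5 and 0, and the strongest of these contacts scored 11.3 in H9 and 0.697 at day 14. MEIS2, which encodes a partner of HOX proteins, had 12 calls in H9 and 7 at day 14, of which 10 and 5 were at its start. All 5 day 14 calls at the MEIS2 start were called in H9 too. The strongest was from a bait 218 kb away and scored 19.6 in H9 and 18.1 at day 14. HAND2, a heart and limb transcription factor gene, had 8 calls in H9 and 3 at day 14, all at fragments within 1 kb of its start. The fragment that holds its promoter, chr4:173529886-173534986, had 1 call in each state, from the same contact. The other calls, 7 in H9 and 2 at day 14, lay on the neighbouring fragment chr4:173524119-173529885. Of the 9 HAND2 contacts 7 came from baits 682 to 690 kb away, and the strongest of these scored 13.4 in H9 and 2.30 at day 14.

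NKX2-1, a transcription factor gene of the ventral forebrain, thyroid and lung, had 7 calls in H9 and 12 at day 14, with 2 in common, all within reach of its start. In the other 8 conditions NKX2-1 had 0 to 7 calls. The strongest, from a bait in PAX9 139 kb away, scored 0.937 in H9 and 12.9 at day 14. Baits 1063.6 to 1074.5 kb away gave 3 of the 7 H9 calls, with scores of 6.66, 7.23 and 7.32, each at 0 at day 14. From the same distant group, day 14 had 1 call at the neighbouring fragment, which scored 1.92 in H9 and 6.22 at day 14.

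SIX6, a homeobox gene of the eye and hypothalamus, had 5 calls in H9 and 10 at day 14, with 2 in common. All but 1 of its contacts came from baits 131 to 150 kb away. MEIS1, which like MEIS2 encodes a partner of HOX proteins, had 0 calls in H9 and 4 at day 14, all at the fragment with its promoter. Those 4 contacts came from baits 143 to 148 kb away and scored 2.57, 3.77, 3.71 and 2.53 in H9, against 7.49, 10.3, 8.21 and 11.3 at day 14. The 2 MEIS genes thus differed in opposite directions, MEIS2 higher and MEIS1 lower in H9.

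**Figure D3:**
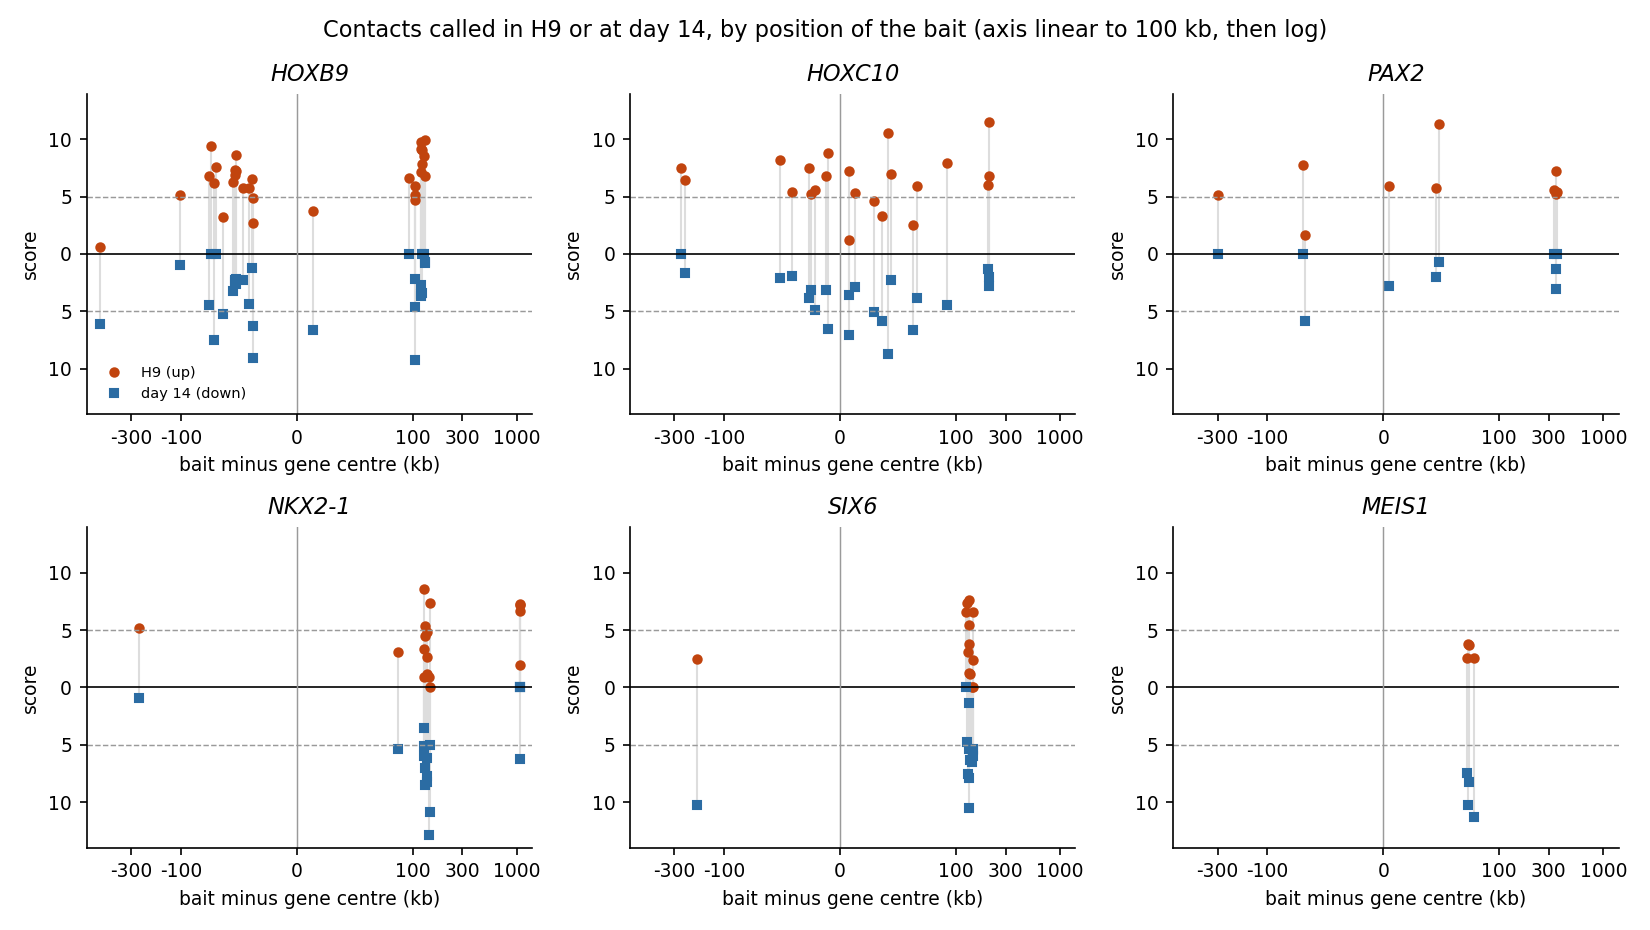
Scores of the contacts called in H9 or at day 14 at 6 genes, H9 upward (orange) and day 14 downward (blue), by position of the bait relative to the gene's centre (kb, linear to 100 kb and logarithmic beyond). Dashed lines mark a score of 5. Contacts of HOXB9, HOXC10 and PAX2 stand mostly above the upper line, and the 4 MEIS1 contacts all lie past the lower line, with day 14 scores of 7.49 to 11.3.

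Among the 10 genes with the largest losses were several that are not homeobox genes. MKNK1, a kinase gene of the translation machinery, had 2 calls in H9 and 8 at day 14. KNCN had 5 and 10 and FAAH, a lipid hydrolase gene, had 3 and 8, and all 3 lie close together on chromosome 1. The fragment chr1:46551428-46556544, with 2 calls in H9 and 6 at day 14, is linked to both MKNK1 and KNCN and counts for each. ARHGAP29 had 2 and 7, CLPSL1 2 and 6, and BORCS5 0 and 4. Over all linked genes, 95 had 3 or more more calls in H9 and 61 had 3 or more fewer, and 75 and 66 with equal numbers of pairs. With a link at the transcript start alone, for the 4672 linked genes whose start the RefSeq table gives, the counts were 31 and 13.

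**Figure D4:**
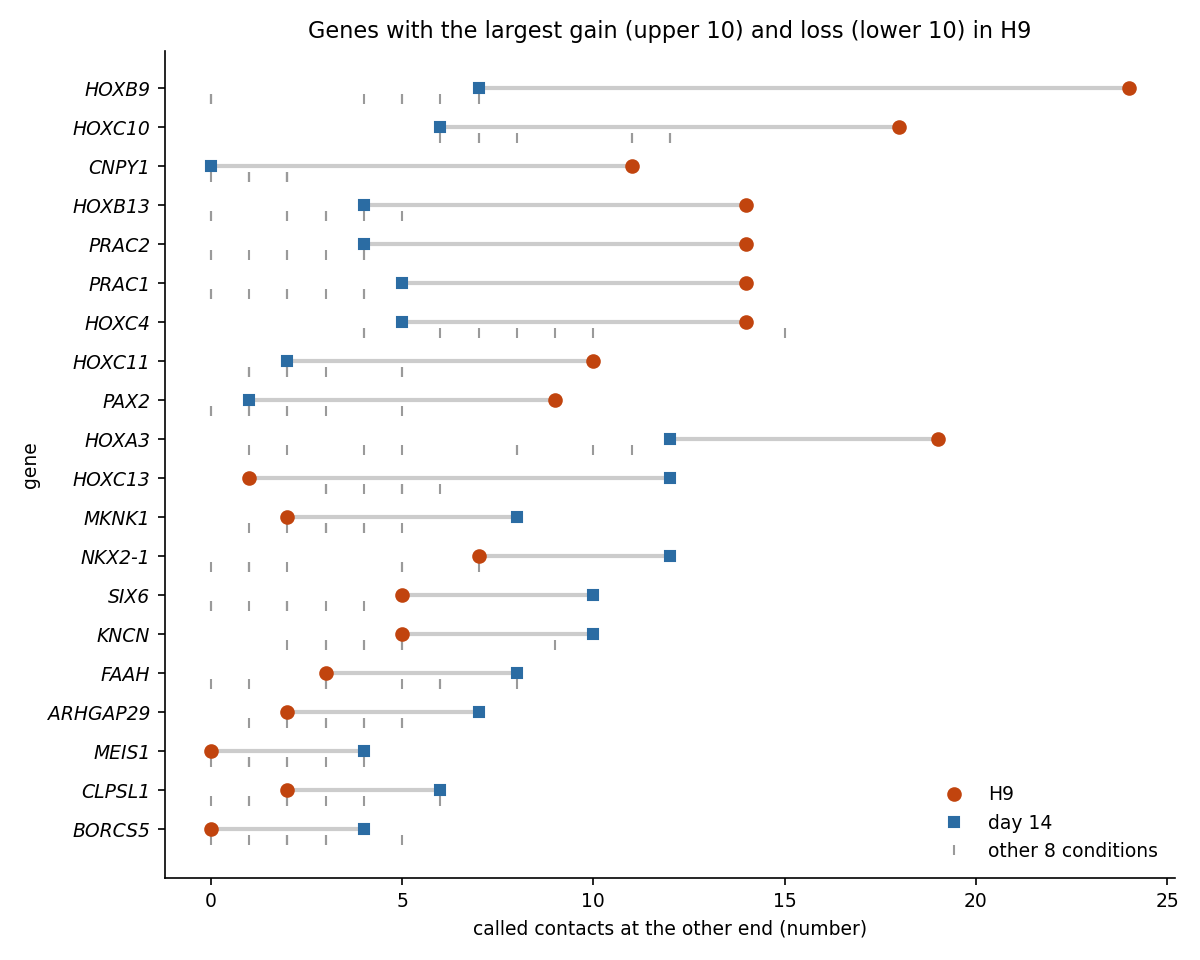
Called contacts at the other end for the 10 genes with the largest gain in H9 (upper) and the 10 with the largest loss (lower), in H9 (circles), at day 14 (squares) and in each of the other 8 conditions (ticks). HOXB9, at 24, and CNPY1, at 11, exceed every other condition, and HOXC4, at 14, does not.

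Most lists of lineage genes carried more calls per linked gene than all linked genes did, in both states. Mesoderm genes had a mean of 2.67 calls in H9 and 1.79 at day 14 and trophectoderm and amnion genes 1.78 and 1.33, where all linked genes had 0.401 and 0.346. The 34 linked neuroectoderm genes of 48 had 63 calls in H9 and 51 at day 14, 16 genes with more and 9 with fewer, and the list contains EN2 as well as NKX2-1 and SIX6. The 24 linked mesoderm genes of 37 had 64 and 43, 11 with more and 5 with fewer, and the list contains PAX2, MEIS2 and HAND2. The 28 linked signalling genes of 49 had 23 and 13, with 8 and 5, and among them WNT6 had 6 and 3 and the Wnt receptor gene FZD10 had 3 and 1. The 13 linked endoderm genes had 4 calls in H9 and 5 at day 14, with 0 in H9 and 1 at day 14 for each of GATA4 and FOXA1, and the 10 linked neural crest genes had 10 in H9 and 5 at day 14. Trophectoderm and amnion genes (9 linked) had 16 in H9 and 12 at day 14. Over all linked genes 20.0% had more calls in H9 and 16.8% fewer. With equal numbers of pairs, 14 neuroectoderm genes had more and 9 fewer, 10 mesoderm genes more and 7 fewer. Signalling genes then stood at 6 and 5, and all linked genes at 1626 and 1669. The median difference at a score of 5 was 0 in the neuroectoderm, mesoderm and signalling lists. TFAP2B, a gene of both the neural crest and the amnion lists, and HAND1 had 2 calls each in H9 and 0 at day 14, MSX2 and SNAI2 had 1 and 0, and BAMBI had 0 and 1.

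Lists of pluripotency and Polycomb genes held few linked members and few calls. The 4 linked naive genes had 0 calls in H9 and 1 at day 14, at TFCP2L1. The 8 linked primed genes had 10 in H9 and 6 at day 14, more per gene than all linked genes had in either state, and among them TCF7L1 had 3 and 4 and DUSP6 had 2 and 0. OTX2, a homeobox gene of primed cells and forebrain, had 4 calls in H9 and 1 at day 14. The 5 linked general pluripotency genes had 4 and 0, of which PRDM14 held 3 and SOX2 held 1. The 18 linked Polycomb genes had 6 in H9 and 2 at day 14, with EED at 1 and 0 and BMI1 at 0 and 1. The 9 linked housekeeping genes had 2 in H9 and 0 at day 14. ISL1 had 7 calls in H9 and 6 at day 14, with 3 in common, OTP, a hypothalamic homeobox gene, had 4 and 2, SOX17, an endoderm gene, had 1 and 1, and PAX6, an eye and forebrain gene, had 0 and 0.

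By bait, 12300 of the 25252 baits listed within chromosomes had a call in H9 and 11222 at day 14. Both states called 6756 of them, but only 1251 of these (18.5%) had a contact in common. H9 exceeded day 14 by 3 or more calls at 1183 baits (4.68%), and had 3 or more fewer at 736 (2.91%). With equal numbers of pairs the counts were 895 and 838. The largest gain was at a bait on chromosome 20 (chr20:31192702-31193629) 64035 bp from the defensin gene DEFB115, with 17 calls in H9 and 1 at day 14, all 17 to one side of it. A bait within GATA4, a transcription factor gene of heart and endoderm, had 23 calls in H9 and 9 at day 14, with 6 in common. The bait 478 bp from FZD7, a Wnt receptor gene, had 21 and 10, with 4 in common, though FZD7 itself had no call as other end. The FZD7 bait had 37 calls in endoderm and the GATA4 bait 26 in neuroectoderm, so neither was highest in H9. A bait in EMX1, a forebrain homeobox gene, had 14 and 2, and a bait 23114 bp from PKNOX2, another homeobox gene, had 12 and 0. The other 5 of the 10 largest gains were a bait at chr1:229013623-229014730 (21 and 6) and baits in TRAF3 (15 and 1), SYT7 (14 and 1) and MAML2 (14 and 4) and near KIF12 (14 and 1). The chromosome 1 bait had 27 calls in endoderm, the MAML2 bait 15 there, and the bait near PKNOX2 15 in neuroectoderm. The rest of the 10 were highest in H9.

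Among the 10 baits with the largest losses in H9, those in SMUG1 and TTLL6 contact HOX clusters from outside. The bait in SMUG1, a DNA repair gene beyond HOXC4, had 4 calls in H9 and 16 at day 14, with 3 in common, and its contact at HOXC4 scored 3.87 in H9 and 6.89 at day 14. The bait in TTLL6, beyond HOXB13, had 3 calls in H9 and 13 at day 14, all 3 in common, and its contact at HOXB13 scored 3.44 and 7.53. As other ends, HOXC4 and HOXB13 had more calls in H9 over all baits. Contacts with a bait at the gene ran the other way, with 3 in H9 and 6 at day 14 for HOXC4. For HOXB13 they numbered 3 and 8, whereas for HOXB9 they numbered 8 and 4. Other baits with losses lay in RBFOX1, a splicing regulator gene (3 and 15), UNC5A, a netrin receptor gene (6 and 15), and SLC8A2, a sodium-calcium exchanger gene (2 and 12), in NBPF1 (2 and 13), and at chr1:125183675-125184134 (3 and 12). Of the 10, 4 were on chromosome 12: those in SMUG1, PRMT8 (3 and 13) and LAG3 (1 and 11), and 1 near KCNA6 (1 and 13).

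Contacts were also summed over 1 Mb windows by bait. The window of the HOXB cluster, chr17:48000001-49000000, had 222 calls in H9 and 149 at day 14, with 28 in common, and 219 in endoderm and 215 in neuroectoderm. The window of CNPY1, EN2 and SHH, chr7:155000001-156000000, had 128 and 61, and its highest count elsewhere was 84, in neuroectoderm. The window chr6:108000001-109000000, with the neural stem cell gene NR2E1 among those contacted, had 87 and 49, and 82 in neuroectoderm. The window chr5:88000001-89000000, with a contacted fragment whose nearest gene is MEF2C, had 84 and 47, and 76 in endoderm. That of the HOXD cluster, chr2:176000001-177000000, had 124 and 88, and 123 in neuroectoderm. Over all, 1210 windows had more calls in H9 and 851 fewer, of 2303 with any call.

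The largest deficits in H9 were in windows of chromosomes 1, 12 and 2. The window chr1:16000001-17000000, which holds the NBPF1 repeat family gene, had 30 calls in H9 and 62 at day 14. The MEIS1 window chr2:66000001-67000000 had 13 and 38. In the other conditions that window ran from 17 in the naive state to 44 on each of days 3 and 5. It had 22 on day 10 and 19 in neuroectoderm. On chromosome 12 the windows starting at 3, 4 and 13 Mb had 32 and 64, 37 and 62, and 35 and 63 calls. From the naive state to day 10 the window at 3 Mb had 26 to 38 calls, a range that includes its H9 count. Over the same columns the windows at 4 and 13 Mb had 51 to 63 and 36 to 67 calls, above H9.

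By chromosome, 21 of 22 autosomes had more calls in H9 (chromosome 16 by 1 call, 555 and 554), but with equal numbers of pairs 12 had more in H9 and 10 fewer. Without that, ratios of H9 to day 14 ran to 1.33 on chromosome 22. Chromosome 12 had the lowest ratio under both settings, with 1576 calls in H9 and 1722 at day 14, a ratio of 0.915 (95% interval 0.855 to 0.980), and 0.797 with equal numbers. Its first 20 Mb were lower in H9: 204 and 314 calls at 0 to 10 Mb, and 77 and 113 at 10 to 20 Mb. The HOXC cluster lies elsewhere, in the block at 50 to 60 Mb, with 474 and 488. Chromosome 12 held 6.63% of H9 calls and between 7.69 and 8.40% of calls in each of the 9 HNES1 columns.

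The X chromosome stood apart, with 570 calls in H9 and 256 at day 14, a ratio of 2.23 (95% interval 1.92 to 2.58). With equal numbers of pairs the ratio was 1.88, where autosomes ran between 0.797 and 1.17. The X held 2.40% of H9 calls and 1.15 to 1.46% of calls in the 9 HNES1 columns. Contacts under 100 kb numbered 68 and 17, and those of 200 to 500 kb 290 and 158. Of the 669 X baits, 57 were at 0 throughout H9 and 200 were at 0 throughout day 14. Without the baits at 0 in either state the X had 454 calls in H9 and 252 at day 14, a ratio of 1.80. Read depth over the X was not analysed here, and the part of these baits in the difference was not tested. Without the X, H9 had 23194 calls and day 14 had 20242, a ratio of 1.15.

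**Figure D5:**
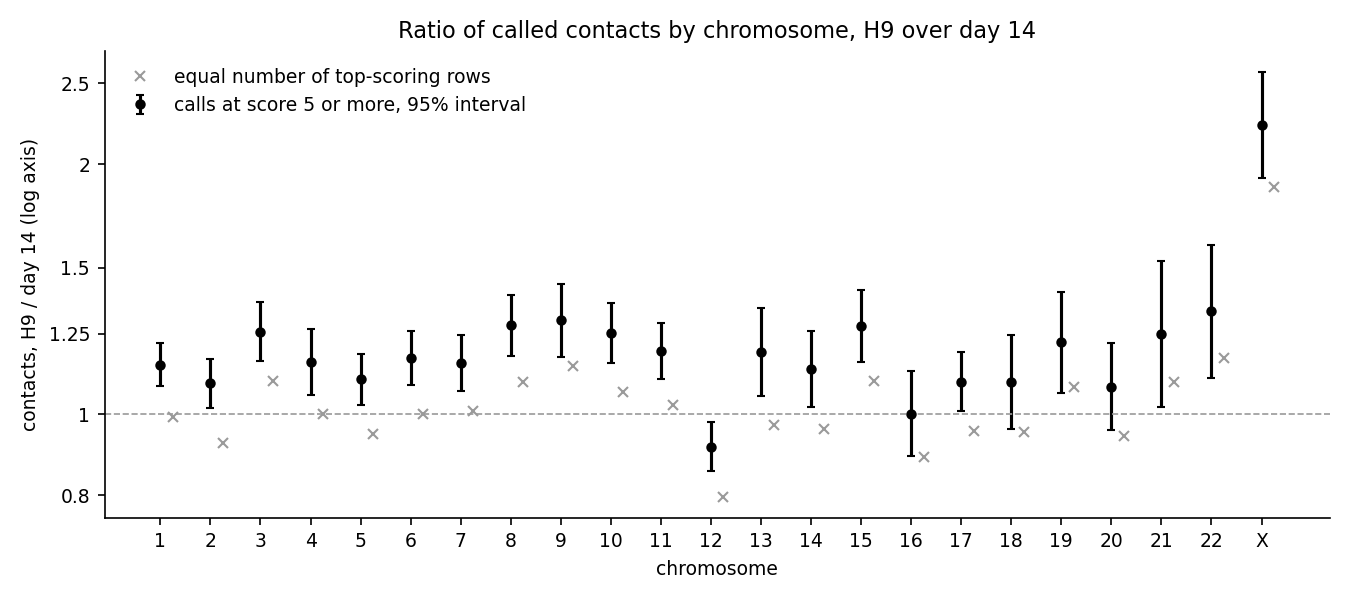
Ratio of called contacts, H9 over day 14, by chromosome (log axis), with 95% intervals from the Wilson interval of the H9 share; crosses give the ratio with equal numbers of top-scoring pairs. The X stands at 2.23 and chromosome 12 at 0.915.

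The strongest contacts called in both states were mainly pericentromeric. By the lower of the 2 scores, 8 of the first 10 joined the same region on either side of the chromosome 16 centromere. Some of these 8 are the same pair of fragments listed from either bait. Scores of exactly 28.456 and 27.763 recur among them, so their order is not a graded one. The first joined chr16:46390065-46390538 to chr16:34581971-34587699, 11805 kb away, with scores of 317 in H9 and 251 at day 14. Another joined a bait at chr1:16727106-16727633 to a fragment 218057 kb away and scored 38.6 and 50.4. The remaining one joined a bait at chr3:187319012-187319399 to a fragment 360 kb away at chr3:187676338-187681426, whose nearest gene is SST, which encodes somatostatin, and scored 29.6 in H9 and 31.0 at day 14.

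A list of shared contacts up to 1 Mb, added after seeing the data, was led by the SST contact and then by MEIS2. The bait 6143 bp from MEIS2 contacted the fragment chr15:37104751-37109683 with a score of 21.3 in H9 and 27.5 at day 14. A bait in GATA4 contacted the fragment beside BLK, 179 kb away, with 25.4 and 17.6. A bait in ISL1, a motor neuron and heart gene, contacted a fragment 417 kb away with 21.5 and 13.8. A bait in the HOXC cluster contacted a fragment 171 kb away, near SMUG1, with 15.8 and 15.0.

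Contacts strong in 1 state and under 1 in the other were also found. The highest in H9 was at the SST fragment again, from the bait beside the one above, at chr3:187319400-187319541, with 29.8 in H9 and 0 at day 14. That bait is listed in 23 pairs and was at 0 in all of them at days 5, 7, 10 and 14, and in H9 it was above 0 in 5, whereas its neighbour's contact scored 31.0 at day 14. A bait 9978 bp from FOXA2, an endoderm and floor plate gene, contacted a fragment in PAX1 861 kb away with 19.8 in H9 and 0 at day 14. A bait near TMEM161B contacted a fragment near MEF2C, 528 kb away, with 18.3 and 0.479. The other 2 of the 5 highest joined a bait near FBXO8 to a fragment in SCRG1, with 19.7 and 0, and a bait 146779 bp from PAX3 to a fragment in FARSB, with 18.1 and 0. In the other direction, the highest joined a bait in NBPF8 to a fragment in NOTCH2, with 0 in H9 and 15.5 at day 14, followed by a bait 39119 bp from AMOTL2, with 0.883 and 13.8, and the NKX2-1 contact above. The remaining 2 joined a bait near RNF228 to a fragment whose nearest gene is PAX3, with 0 in H9 and 12.8 at day 14, and 2 fragments within ASIC2, with 0.976 and 12.8.

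Contacts called in 1 state were mostly not called elsewhere. Of those called in H9 and not at day 14, 24.6% (24.0 to 25.2%) were called in any of the other 8 conditions, against 26.0% (25.4 to 26.7%) of those called at day 14 and not in H9. Of the contacts called in both, 78.0% (76.0 to 79.9%) were called in at least 1 other condition and 61 (3.46%) in all 8. In neuroectoderm 8.37% of the H9 class, 8.32% of the day 14 class and 42.1% of the contacts called in both were called. The 6 earlier columns of HNES1, which share a cell line with day 14, called 17.7% of the H9 class and 19.7% of the day 14 class in at least 1 of them.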

How the data were processed

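PECHi-C contacts were measured in 20 libraries of 10 conditions, of which the 4 libraries of H9 and day 14 were used here. The authors deposited 1 matrix of interaction scores, named CHiCAGO scores per the labels, with 1 score per pair of fragments and condition, so both libraries of a condition share a value. Coordinates are on GRCh38, per the submitters' processing notes. The aligner, the caller's version and the filters are not given in the sources used here, and read depth is unknown.

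Pairs on the same chromosome were called at a score of 5 or more. Genes (19942 protein-coding, RefSeq GRCh38.p14, 95 readthrough genes left out) were linked where an annotated end lay within 1 kb of the other end. The reading of calls was tested on simulated data. Intervals are Wilson 95% and cover counting error only; those of chromosome ratios come from the H9 share of both states' calls. Python 3.11.15, pandas 2.3.3, numpy 2.4.6, scipy 1.17.1 and matplotlib 3.10.9 were used.

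The text names the 10 genes and the 10 baits that differed most in each direction by number of calls, the 3 genes of each list with the largest difference, the 5 windows of 1 Mb each way, the 10 strongest shared contacts, the 5 strongest of each state, and 10 genes given whatever their values. The members, the 12 gene lists and this rule were chosen with earlier results of these data known. Further HOX genes are given to describe their clusters, and some genes are counted in the totals but not reported here. Alternatives were other score thresholds, equal numbers of pairs, other link margins, a looser match of other ends, and leaving out the X, contacts between baits or repeated pairs. Leaving out fragments or baits without a score was chosen after seeing the data.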

Additional observations from a re-analysis of the deposited data

How the results depend on the processing

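No paired analysis was possible because each state has 1 pooled score and no library has a column of its own; for the same reason no library could be left out. Of 130 values under other settings, 92 stayed within the main counting interval or within 1.5 times the main count. At a threshold of 3 the ratio of calls, H9 over day 14, was 1.11, with 10454 contacts called in both, shares in common of 25.35% and 28.14%, and 147 genes with 3 or more more calls in H9. At a threshold of 10 the ratio was 1.45, with 544 contacts in H9 only, 354 at day 14 only and 66 in both, and shares of 10.8% and 15.7%. At that threshold the median distance differed by 21.7 kb, the ratio between baits was 1.78, 7 baits had more and 1 fewer, and 1 gene had more and 0 fewer. The HOX difference was then 0.135 calls per gene. Both reversals came at the threshold of 10: the share beyond 1 Mb, H9 minus day 14, was -0.781 percentage points (0.129 at 5), and the neuroectoderm difference was -0.0294 calls per gene (0.353 at 5). The cause was not tested. The share of state-specific contacts called in the other 8 conditions, H9 minus day 14, was -4.50 points at the threshold of 10 and -0.530 with equal numbers (-1.41 at 5).

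With equal numbers the ratio was 1.00 by construction, shares were 8.01% each, and the ratio between baits was 1.15. With no link margin 60 genes had more and 37 fewer, and with 5 kb 248 and 155, with a HOX difference of 3.82. Other ends within 10 kb taken as the same gave 3565 contacts in both, with shares of 15.0% and 16.9%. Requiring a score under 1 in the other state left 11160 H9 and 9129 day 14 contacts, and 22211 with 1 or more. Without baits at 0 throughout a state the ratio was 1.13. Contacts between baits have no ratio where they are left out. Scores without read counts limit every comparison: a contact missing in 1 state cannot be told apart from one sampled too thinly there.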
